A study of Mus musculus with 6 samples.

Results

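The uninjured baseline of this study was the hippocampus of sham-operated mice, measured by bulk RNA-seq in 3 libraries named Sham 1, Sham 2 and Sham 3, out of 6 libraries in the series. The libraries were taken by their labels, and levels of the injured libraries were not used. All sham mice were wild type C57BL/6 animals of 56 days, and the study's methods describe males. Sham surgery comprised anaesthesia with isoflurane, exposure of the left carotid arteries and ligation of the external carotid, and left out the filament that blocks the middle cerebral artery in the injured group. Each library came from pooled hippocampi of the operated side, so a library is the unit of replication, and the animals within a pool cannot be told apart. The data describe 41386 genes of the deposited table.

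The hippocampus is a cortical structure needed for forming memories of places and events. Granule cells of the dentate gyrus project to CA3 pyramidal cells, which project to CA1, and scattered GABAergic interneurons restrain all 3 stations. Fast excitation runs through AMPA, kainate and NMDA receptors for glutamate, fast inhibition through GABA-A receptors, and the choroid plexus, which makes cerebrospinal fluid, hangs in the ventricle alongside.

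Read totals were 42434689, 44788547 and 37493042 counts for Sham 1, Sham 2 and Sham 3. Levels are given as deposited FPKM, which are counts scaled to gene length in kilobases and to the library total. Levels of 1 gene can be compared between libraries without regard to length, but the order of 2 genes depends on the length used. The length that the deposited FPKM imply matched the deposited length column, within 0.1%, in 26.5% of 14038 genes with at least 50 counts in every library, and its median ratio to that column was 0.649. Where it matters, values computed with the deposited length (FPKM by the deposited length, written as per deposited length) are therefore given beside the FPKM. The mice were labelled C57BL/6, while the gene identifiers were those of the BALB/cJ annotation, and the effect of this on the counts was not tested. Errors are SD over the 3 libraries unless stated otherwise, and with 1 group there is no comparison between conditions. In tissue RNA, fewer cells of a type and less RNA per cell cannot be told apart.

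Sham 1 stood apart from the other libraries in choroid plexus genes. Ttr, the transthyretin carrier of thyroid hormone and the most abundant choroid plexus transcript, was at 7.44, 1850.2 and 3078 FPKM in Sham 1, Sham 2 and Sham 3, from 385, 101015 and 140679 counts. Sham 1 was far below both others, and Sham 3 was 1.66 times Sham 2. Ttr was the gene with the widest range of all named genes, with a highest library 417 times the lowest in CPM, the counts divided by a TMM-scaled library total. The second widest was Slc4a5, a sodium bicarbonate transporter of the plexus epithelium, with 1, 898 and 1086 counts and a ratio of 413 after the Sham 1 count was set to the floor of 3. Kcne2, a potassium channel subunit, had 3, 469 and 738 counts and a ratio of 280.4.

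The same order held through the choroid plexus marker list. Of 20 listed genes 19 were found, and in all 19 Sham 1 was the lowest library and Sham 3 the highest. The background for these counts was 35.8% of 14905 genes lowest in Sham 1 and 30.2% highest in Sham 3. In 18 of the 19 genes Sham 1 was under 0.5 times both other libraries, against 1.04% of the same 14905 genes. The exception, Car12, a membrane carbonic anhydrase, was at 16.4, 26.7 and 32.7 FPKM. The 14905 genes are those with at least 1 FPKM in at least 1 library. Of the 19 listed genes, 11 did not reach 1 FPKM in Sham 1. They were counted only through Sham 2 and Sham 3, where they were high. Sham 1 was also singled out from measured values, so these shares are descriptions. Summed over the list, FPKM was 81.1, 2349.9 and 3917, so Sham 2 was 28.96 times and Sham 3 48.3 times Sham 1. The list was not level between the other libraries either: Sham 3 exceeded Sham 2 in each gene, by a median CPM ratio of 1.74 and by 1.23 to 2.25.

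Among genes that define the plexus epithelium, Folr1, a folate receptor, was at 0.7602, 19.4 and 36.6 FPKM. Kl, the klotho co-receptor of FGF23, was at 4.03, 16.1 and 25.6 FPKM. Otx2, a homeodomain transcription factor that the plexus keeps into adulthood, was at 0.401, 6.63 and 14.9 FPKM. In each of these Sham 1 was lowest, and the water channel Aqp1 at 0.108, 5.01 and 8.13 FPKM followed the same order. Enpp2, which encodes autotaxin and is also made by other brain cells, kept 41.02, 327 and 549.6 FPKM, so it was well expressed even in Sham 1. With Sham 1 left out, the mean FPKM of Ttr was 2464, and all 19 genes reached 1 FPKM in both remaining libraries, against 8 in all 3.

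The start regions of the genes that moved together are shown for 3 of them, with the 6-base core TAATCC, the letters bound by OTX2-type homeodomains, in capitals on either strand (its reverse complement reads GGATTA). Ttr was not looked for, because the chromosome that carries it was left out of this search. Slc4a5 is shown as the gene with the widest range among those looked for that had a window. Mfrp and Otx2 are shown as those whose window held the core. Each sequence is 300 bases from RefSeq on GRCm38.p6, 5′ to 3′ on the gene's strand, from 250 bases before to 50 after an annotated start. Slc4a5 lies at chr6:83237125-83237424 on the plus strand, Mfrp at chr9:44101520-44101819 on the plus strand, and Otx2 at chr14:48665060-48665359 on the minus strand, 1 of 4 windows of that gene.
Slc4a5: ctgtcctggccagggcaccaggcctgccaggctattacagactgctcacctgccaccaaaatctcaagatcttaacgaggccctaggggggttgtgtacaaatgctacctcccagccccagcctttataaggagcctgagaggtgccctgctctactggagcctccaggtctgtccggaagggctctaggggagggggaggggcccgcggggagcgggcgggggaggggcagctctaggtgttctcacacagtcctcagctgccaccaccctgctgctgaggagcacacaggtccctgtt
Mfrp: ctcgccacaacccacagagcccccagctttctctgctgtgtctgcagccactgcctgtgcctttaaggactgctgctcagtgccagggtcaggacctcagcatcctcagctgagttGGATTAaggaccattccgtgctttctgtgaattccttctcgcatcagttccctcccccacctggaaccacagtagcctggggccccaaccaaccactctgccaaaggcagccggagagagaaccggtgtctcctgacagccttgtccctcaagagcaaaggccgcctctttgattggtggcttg
Otx2: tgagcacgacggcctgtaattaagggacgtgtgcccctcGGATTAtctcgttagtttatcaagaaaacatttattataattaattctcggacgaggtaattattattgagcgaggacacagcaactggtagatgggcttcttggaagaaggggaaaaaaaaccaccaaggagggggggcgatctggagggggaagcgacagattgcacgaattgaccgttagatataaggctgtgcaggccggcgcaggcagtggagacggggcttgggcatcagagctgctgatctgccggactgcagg
Of 24 genes looked for, 18 had a window, and 2 of these 18 held the core, in 2 of 25 windows or 8.0%. The 18 include Tmem72, a member of the choroid plexus list that has no measured level here and whose window lacked the core. Among the 32851 windows searched 7.06% held it, so the share was near that of promoters in general. No match says only that these letters are not in the window.

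**Figure D1:**
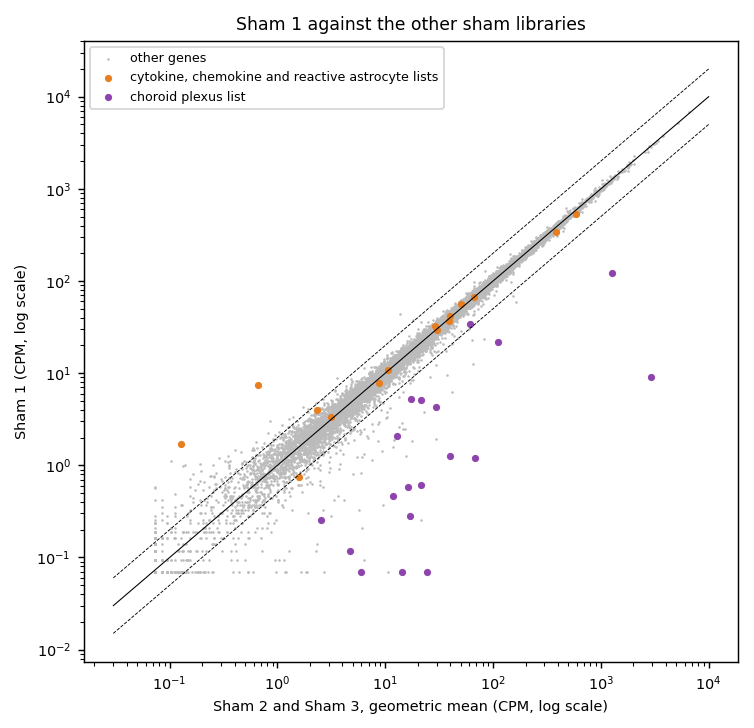
Level of each of 14905 genes in Sham 1 (vertical axis) against the geometric mean of Sham 2 and Sham 3 (horizontal axis), both in TMM-scaled CPM on log axes, with libraries under 3 counts set to 3. The solid line marks equality and the dashed lines a ratio of 2 either way; the purple points are the choroid plexus list, 18 of 19 of which were under 0.5 times both other libraries, and the orange points at the upper left are Lcn2 and Ccl2.

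Most of the 15 genes with the widest range were plexus genes too. The choroid plexus list supplied 10 of the 15, and in all 15 Sham 1 was the lowest library. The other 5 were Mfrp, a frizzled-related membrane protein, Prr32, Wdr72, the defensin Defb11 and the epithelial keratin Krt18. Krt18 had 9, 208 and 303 counts and its partner keratin Krt8, named after its values were seen, 6, 69 and 129. The 10 next genes outside that list were those that, unlike Ttr, had 2 libraries within 1.5 times of each other. They included Fap, a fibroblast protease, with 5, 100 and 88 counts. Trpv4, an osmosensitive cation channel, had 68, 442 and 516 counts, and the lactate transporter Slc16a8 had 35, 233 and 252. In these Sham 1 was low, as in Ttr, but with Sham 2 and Sham 3 within 1.5 times of each other. The rule took only genes with 2 libraries that close, so the closeness follows from the choice. Slc4a5 of the choroid plexus list had this pattern too. Cox8b, Oca2, Zfp511 and the opposite strand transcript Frmpd1os had the same form, with CPM ratios of 18.9, 11.9, 8.99 and 9.54. The remaining 3 rested on few counts: Rangrf had 7, 5 and 62, Gm15046 33, 31 and 2 and Gm22204 24, 1 and 2.

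Expression reached 1 FPKM in every sham library for 13591 of 41386 genes, which is 32.8%, and these genes are called expressed here. A further 1314 genes reached it in 1 or 2 libraries only, so 14905 genes reached it in at least 1. No sham count fell on 15607 genes, and 10874 were counted but stayed under 1 FPKM throughout. The limit is not a gap in the data: 219 genes had a lowest library of 1 to 1.1 FPKM and 207 one of 0.9 to 1. At least 10 FPKM in all 3 libraries was reached by 7774 genes, 100 FPKM by 1080 and 1000 FPKM by 29. The expressed genes had a median of 14.1 FPKM and quartiles of 5.09 and 36.2 FPKM.

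Kinds of gene differed widely in the share expressed. Of 17967 genes that RefSeq calls protein-coding 64.2% were expressed, of 2743 long noncoding RNAs 11.4%, of 561 pseudogenes 5.35%, and of 11253 rows with no name 9.38%. All 45 Nduf subunits of mitochondrial complex I and 83 of 91 cytosolic ribosomal protein genes were expressed. Of the solute carriers, which move nutrients and transmitters across membranes, 238 of 366 were expressed, and of the Kcn potassium channels 57 of 83. Receptors of the nose were nearly all below the limit, with 1 of 861 olfactory receptor genes (Olfr287 at 2.79 FPKM) and 0 of 145 vomeronasal receptors. None of 43 Hox genes, which pattern the hindbrain and trunk, was expressed. The keratins reached 7 of 52, led by Krt222 at 25.6 FPKM.

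**Figure D2:**
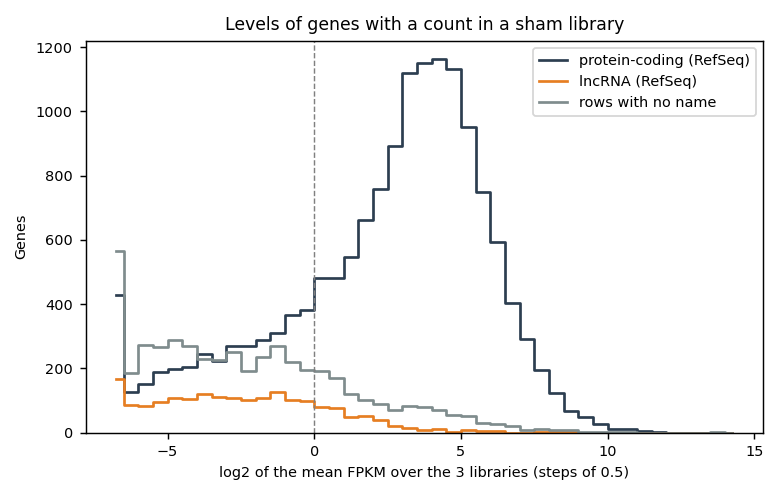
Number of genes (vertical axis) by the log2 of the mean FPKM over the 3 sham libraries (horizontal axis, steps of 0.5), for protein-coding genes, long noncoding RNAs and rows with no name that had a sham count. The lowest step holds all genes at or below it, the dashed line marks 1 FPKM, and the protein-coding genes peak well above that line while the other kinds lie mostly below it.

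Abundance was spread over many genes of the table, which held no mitochondrial chromosome. The highest 10 genes of each library held 5.97% ± 0.0591 of all FPKM, the highest 100 held 19.7% ± 0.152, and the highest 1000 held 52.9% ± 0.331 (SD, n = 3). The highest 50 held 13.98% ± 0.121 of FPKM but 10.4% ± 0.168 of counts. The highest row alone, which had no name and is described below, held 2.37% ± 0.108 of FPKM.

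Several genes of calcium signalling were among the 25 named genes with the highest FPKM. Calm3, a gene for the calcium sensor calmodulin, led at 3279.8 ± 128 FPKM, followed by Camk2a, the calmodulin-dependent kinase of excitatory synapses, at 2563 ± 33.2 FPKM. Hpca, the neuronal calcium sensor hippocalcin, was at 2183 ± 25.3 FPKM, and Nrgn, which binds calmodulin in dendrites, at 1842 ± 25.1 FPKM. Calm2 was at 1999 ± 73.8 FPKM and Ppp3ca, the catalytic subunit of calcineurin, at 1183 ± 102 FPKM. Each of these genes varied by less than 1.2 times between libraries.

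Glial and metabolic genes filled much of the rest of the highest 25. Apoe, the lipid carrier made by astrocytes, was at 2269.9 ± 118 FPKM, Glul, glutamine synthetase, at 1817 ± 154 FPKM, and Slc1a2, the main astrocyte glutamate transporter, at 1518 ± 75.4 FPKM. Mbp, myelin basic protein, was at 1817 ± 143 FPKM. The iron store Fth1 was at 2085 ± 59.3 FPKM, the chaperone Hsp90ab1 at 2039.5 ± 22.8 FPKM and the sodium pump subunit Atp1b1 at 1684 ± 12.5 FPKM. The ATP synthase subunit Atp5b, the protease inhibitor Cst3, the glycolytic enzyme Aldoa, the peptide-processing enzyme Cpe and the actin-binding peptide Tmsb4x ranged from 1365 FPKM to 1623 FPKM. Ncdn, Arf3, Mt3, Rplp1 and Ptms closed the list, from 1112 FPKM to 1332 FPKM. Ttr ranked 12 among named genes only through Sham 2 and Sham 3. Of the 25 genes 21 were among the highest 25 of every library.

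The order of these genes depends on the length. Per kilobase of the deposited length Fth1 led at 2085, then Calm2 at 1685, Ttr at 1645 and Cpe at 1498, with Calm3 at 1397 and Camk2a at 1051. Calm3 was 1.64 times Calm2 in deposited FPKM and 0.829 times Calm2 on that scale. Slc1a2 moved from rank 16 to 157. Still, 20 of the 25 genes were shared between the highest 25 of both scales.

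**Figure D3:**
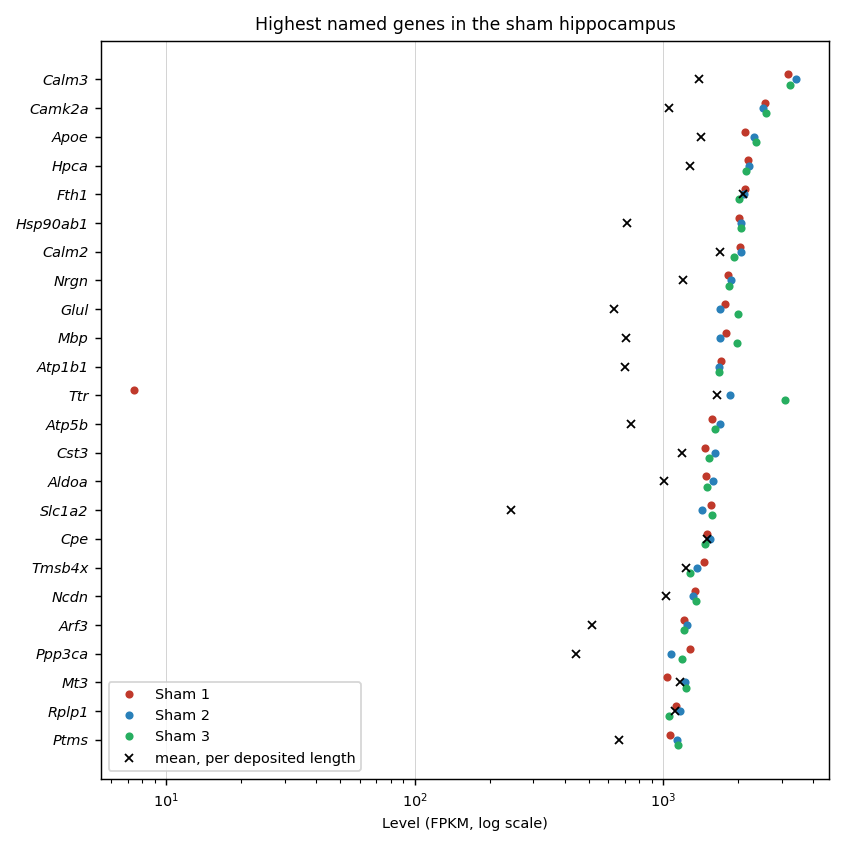
FPKM of the highest named genes (horizontal log axis), those named in the text, in each sham library as coloured points, with the mean per kilobase of the deposited length as black crosses. The 3 libraries nearly coincide in each gene except Ttr, which was at 7.44 FPKM in Sham 1, and the crosses of Slc1a2, Glul and Hsp90ab1 lie well to the left of their points.

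The highest row of the whole table had no name. It covers 491 bases on the minus strand of chromosome 2 (19588471 to 19588961 in the BALB/cJ coordinates of the file), with 292355, 300091 and 236812 counts and 13514 ± 595 FPKM, or 2.48%, 2.37% and 2.26% of all FPKM in Sham 1, Sham 2 and Sham 3. The row overlaps Myo3a and, at its low-coordinate edge, a row named mt-Ts1, and a row named mt-Td ends 71 bases before its start. The table held no mitochondrial chromosome, and its 11 rows named as mitochondrial genes lay on 6 nuclear chromosomes and had no sham count. Whether the reads of the unnamed row came from mitochondrial RNA was not tested. The next unnamed row, on chromosome 7 from 13472794 to 13477828, carried the pathway annotation of Selenow, a small selenoprotein, and had 1692 ± 41.8 FPKM.

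Cell type markers were looked at as lists of known marker genes. Of 244 cell type markers found, 185 or 75.8% were expressed in all 3 libraries, against 32.8% of all 41386 genes. Of the 17967 protein-coding genes alone, 64.2% were expressed. All 10 pan-neuronal markers were expressed, led by Syp, a synaptic vesicle protein, at 975 ± 29.8 FPKM, and Snap25, which fuses vesicles with the membrane, at 758 ± 23.4 FPKM. The vesicular glutamate transporter Slc17a7 was at 561 ± 23.5 FPKM and its subcortical relative Slc17a6 at 4.996 ± 0.541 FPKM, a ratio of 113 in the mean of the 3 libraries on either length.

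Every field of the hippocampus was represented. The 10 dentate granule cell markers were all expressed, with Calb1, a calcium buffer also made by other neurons, at 73.5 ± 2.31 FPKM. Prox1, the transcription factor that marks granule cells, was at 26.5 ± 2.74 FPKM, and C1ql2, secreted at their mossy fibre synapses, at 46.9 ± 4.7002 FPKM. The 8 CA1 markers were all expressed, with Mpped1 at 195 ± 10.4 FPKM, Wfs1, an endoplasmic reticulum membrane protein, at 47.98 ± 5.02 FPKM, and Fibcd1 at 38.7 ± 1.09 FPKM. In 7 of the 8 CA1 markers Sham 2 was the highest library, against 36.5% of the 14905 genes, and their ratios of highest to lowest library stayed at or under 1.24. All 9 CA3 markers were expressed, with the secreted pentraxin Nptx1 at 155 ± 4.13 FPKM and the kainate subunit Grik4 at 12.99 ± 0.4503 FPKM. Of 7 CA2 markers 6 were expressed, with Rgs14, a regulator of G-protein signalling, at 79.2 ± 2.71 FPKM, while the vasopressin receptor Avpr1b stayed at 0.189 FPKM.

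All 15 interneuron markers were expressed and none differed by more than 1.18 times between libraries. The peptides Cck at 518 ± 39.03 FPKM and Sst at 477 ± 33.9 FPKM led, the peptide Npy was at 77.4 ± 4.69 FPKM, the calcium buffer Pvalb at 44.9 ± 1.26 FPKM and the peptide Vip at 12.4 ± 0.7104 FPKM. Cck is also made by pyramidal cells. Sst was 10.6 times Pvalb. The GABA-synthesising enzyme Gad1 at 172 ± 2.83 FPKM was 3.04 times Gad2 at 56.6 ± 3.61 FPKM, and 2.89 times per deposited length.

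Of 10 neural stem cell and neuroblast markers 7 were expressed, and the list summed to 69.9, 64.04 and 70.1 FPKM. Calb2, the calcium buffer calretinin, which interneurons also make, was at 25.2 ± 0.436 FPKM and Hopx, which astrocytes also make, at 18.9 ± 1.82 FPKM. Dcx, a microtubule protein of young neurons, was at 6.69 ± 0.922 FPKM and Neurod1 at 8.34 ± 0.763 FPKM, and Igfbpl1, Nes and Sox11 ranged from 2.895 FPKM to 2.01 FPKM. By contrast, Mki67 and Top2a, made by dividing cells, were at 0.262 ± 0.0311 FPKM and 0.687 ± 0.127 FPKM, and Eomes of intermediate progenitors was at 0.441 ± 0.108 FPKM. These 3 were under the 1 FPKM limit. Of 5 Cajal-Retzius markers 2 were expressed, Ndnf at 5.63 ± 0.358 FPKM and Trp73 at 3.197 ± 0.572 FPKM.

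Glia were complete by their markers. All 12 astrocyte markers were expressed, from Glul and Slc1a2 above to Gfap, the astrocyte filament protein, at 198 ± 14.8 FPKM, and the water channel Aqp4 at 19.7 ± 1.86 FPKM. All 12 microglial markers were expressed, at lower levels: the complement subunit C1qa led at 47.8 ± 1.52 FPKM, with P2ry12, a purine receptor of resting microglia, at 12.5 ± 1.49 FPKM and Tmem119 at 20.2 ± 2.01 FPKM. Sham 1 was the lowest library in 9 of these 12, against 35.8% of the 14905 genes, and the ratios of highest to lowest were 1.03 to 1.26. None of 7 border macrophage markers was expressed in all 3 libraries, although Mrc1 and Pf4 averaged 1.11 FPKM and 1.26 FPKM.

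Myelin genes differed between the libraries in a shared order. The 12 mature oligodendrocyte markers summed to 3899, 3488 and 4333 FPKM. Sham 2 was lowest in 11 of 12, against 34.5% of the 14905 genes, and Sham 3 was highest in 9, against 30.2%. Mal, a lipid-raft protein of myelin, was at 189, 159 and 219 FPKM. No marker of the list reached a ratio of 2, the largest being 1.43. The 8 precursor markers were expressed, with the receptor Pdgfra at 25.5 ± 2.12 FPKM, and Sham 2 was lowest in 7 of them.

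Markers of vessel cells were present throughout. The 10 endothelial markers were all expressed, among them the glucose transporter Slc2a1 at 87.4 ± 8.17 FPKM and the tight junction protein Cldn5 at 23.99 ± 0.397 FPKM, and none exceeded a ratio of 1.203. All 9 mural cell markers were expressed, with Vtn at 49.7 ± 6.64 FPKM and Rgs5 at 33.7 ± 0.515 FPKM, and the contractile genes Acta2 and Tagln ran at 10.5, 14.8 and 9.87 and 10.8, 12.8 and 8.69 FPKM. Of 8 leptomeningeal fibroblast markers 7 were expressed, and Sham 1 was the lowest library in 7 of the 8, against 35.8% of the 14905 genes. In 2 of them the ratio exceeded 2. Igf2, a growth factor also made in the choroid plexus, was at 27.95, 62.9 and 92.6 FPKM, and the collagen-binding proteoglycan Lum at 0.917, 1.41 and 2.39 FPKM, with Sham 1 lowest and Sham 3 highest in both. Their part in the choroid plexus pattern was not tested.

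Ependymal cells line the ventricle beside the choroid plexus. Of 9 ependymal markers 8 were expressed and none differed by more than 2 times, the largest ratio being 1.97. Foxj1, the master factor of motile cilia, was at 6.32, 6.37 and 8.98 FPKM, and Rsph1, a radial spoke protein of cilia, at 4.41, 4.76 and 7.42 FPKM. Sham 3 was highest in 7 of the 8, against 30.2%, and the lowest library was Sham 2 in 5, against 34.5%, and Sham 1 in 3, against 35.8%. The cilia genes Drc7, with 124, 431 and 801 counts, and Spata18, with 29, 74 and 137, were named after their values were seen and ran from Sham 1 up to Sham 3.

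**Figure D4:**
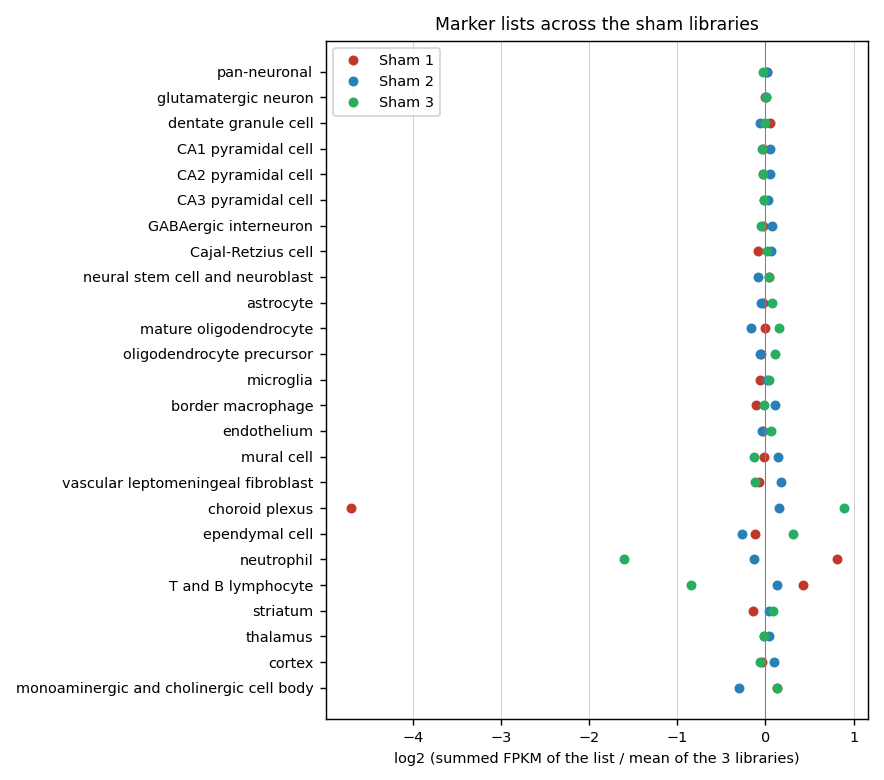
Summed FPKM of each cell type marker list in each sham library, as the log2 of its ratio to the mean of the 3 libraries (horizontal axis), 1 line per list. The choroid plexus list spans from 81.1 FPKM in Sham 1 to 3917 FPKM in Sham 3, and the neutrophil and lymphocyte lists, which summed to under 3 FPKM in every library, are the other lists with wide spacing.

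Of 5 erythrocyte markers only Alas2, an enzyme of haem synthesis, was found, at 1.44, 1.42 and 2.05 FPKM, and the globin genes of the list were not analysed here. None of 8 neutrophil and none of 8 lymphocyte markers was expressed in all 3 libraries, with list sums of 2.73, 1.43 and 0.511 and 2.13, 1.72 and 0.882 FPKM. The neutrophil protein S100a9 was at 1.32, 0.865 and 0.0517 FPKM. Of the cell body markers of monoamine and acetylcholine neurons, which reach the hippocampus only as axons, 1 of 11 was expressed, the decarboxylase Ddc at 11.6 ± 2.25 FPKM. Chat, which makes acetylcholine, was at 0.0111 FPKM, Th, an enzyme of dopamine synthesis, at 0.983 FPKM, and Tph2, an enzyme of serotonin synthesis, at 0.764 FPKM.

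Lists for striatum, thalamus and cortex, regions next to the hippocampus, were expressed in 9 of 12, 8 of 9 and 8 of 10 genes, several of which hippocampal cells also make. Ppp1r1b, the DARPP-32 phosphatase inhibitor of striatal neurons, was at 47.7, 65.8 and 80.5 FPKM, with Sham 1 lowest. Whether this order belongs with that of the choroid plexus list was not tested. Of 10 striatum genes with 1 FPKM in some library, Sham 1 was lowest in 4, against 35.8% of the 14905 genes. Sham 3 was lowest in 5, against 29.8%, and 1 gene exceeded a ratio of 2, at 2.35. Drd2 and Adora2a, which define indirect-pathway striatal cells, averaged 1.02 FPKM and 0.849 FPKM and were among the 3 striatum genes not expressed. Gbx2, a factor of thalamic neurons, was the 1 thalamus gene not expressed and was listed at 0. Summed over its list, striatum was at 163, 184 and 189 FPKM in Sham 1, Sham 2 and Sham 3. Thalamus was at 66.8, 69.7 and 66.8 FPKM and cortex at 176, 192 and 172 FPKM.

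Receptor genes were counted as 23 families with 178 genes, all of which were found, and 122 or 68.5% were expressed. That share was near the 64.2% of 17967 protein-coding genes, against 32.8% of all 41386 genes. Neighbours in the order of FPKM within a family were compared by whether their libraries overlapped: of 106 neighbouring pairs 78 did not overlap and 28 did. Per deposited length 17 of the 106 pairs had the reverse order, 8 of them without overlap on either scale. With 3 paired libraries no exact sign test can go below a two-sided p of 0.25, so these orders are descriptions.

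AMPA receptors, which carry most fast excitation, were dominated by Gria1 and Gria2. Gria1 was at 345, 315 and 341 FPKM, Gria2, the subunit that keeps calcium out, at 252, 198 and 228 FPKM, Gria3 at 74.1, 68.2 and 70.6 FPKM and Gria4 at 15.7, 16.2 and 14.7 FPKM. No neighbouring pair overlapped. Gria1 supplied 51.7% ± 1.33 of the family's FPKM and 59.2% ± 1.05 per deposited length, and the order of the 4 genes was the same on both scales. Gria2 had the widest range of the 4, 1.27, with Sham 2 lowest.

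The auxiliary subunits that traffic AMPA receptors were all expressed, 13 of 13. Olfm1 at 459 ± 9.42 FPKM and Cnih2, a cornichon that slows channel closing, at 434 ± 14.3 FPKM led, and their order turned per deposited length, at 337 and 434. Among the transmembrane regulatory proteins Cacng7 at 109 ± 2.18 FPKM and Cacng8 at 108 ± 0.595 FPKM overlapped. Cacng8, the form typical of hippocampus, varied least of all members, by 1.003 times. Cacng3 at 38.5 ± 2.92 FPKM, Cacng4 at 12.1 ± 0.323 FPKM, Cacng2 (stargazin) at 11.3 ± 0.567 FPKM and Cacng5 at 4.23 ± 0.277 FPKM followed. The others were Shisa7, Cnih3, Shisa6, Shisa9 and Gsg1l, from 64.7 FPKM down to 9.38 FPKM.

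NMDA receptors gate calcium entry for plasticity and need Grin1 in every channel. Grin2b was at 181, 167 and 182 FPKM, Grin1 at 132, 134 and 126 FPKM and Grin2a at 90.96, 80.7 and 86.8 FPKM, with no overlap between neighbours. Which of the 3 led depended on the length: per deposited length Grin1 was at 89.6, Grin2b at 38.1 and Grin2a at 31.7. Thus Grin2b was 1.35 times Grin1 in deposited FPKM, whereas Grin1 was 2.35 times Grin2b per deposited length. Grin2b exceeded Grin2a on both scales, by 2.05 and 1.204 times, in 3 of 3 libraries. Grin2c at 10.7 ± 0.241 FPKM, Grin3a at 8.44 ± 0.468 FPKM and Grin2d at 7.75 ± 0.5603 FPKM were low, and Grin3b at 0.07199 FPKM was not expressed.

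Kainate receptors were led by Grik5, a subunit that needs a partner to form channels, at 119, 125 and 117 FPKM, which was 72.7% ± 0.985 of the family and 63.3% ± 1.01 per deposited length. Grik2 was at 20.6 ± 1.11 FPKM, Grik4 at 12.99 ± 0.4503 FPKM, Grik3 at 7.69 ± 0.568 FPKM and Grik1 at 3.92 ± 0.167 FPKM, in the same order on both scales and with no overlap between neighbours. Their auxiliary proteins Neto1 and Neto2 were at 38.997 ± 1.43 FPKM and 8.53 ± 0.823 FPKM. Grid1, a delta receptor that bridges synapses, was at 25.2 ± 0.484 FPKM.

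Metabotropic glutamate receptors signal through G proteins. Grm5, which couples to phospholipase C, was at 89.4, 75.3 and 82.3 FPKM and 42.9% ± 2.94 of the family. Grm2 was at 32.2 ± 3.66 FPKM and Grm7 at 25.6 ± 0.764 FPKM. Grm3 was at 10.6 ± 0.109 FPKM, Grm4 at 6.06 ± 0.9098 FPKM and Grm8 at 3.53 ± 0.257 FPKM. Grm6, the retinal receptor, was listed at 0.

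**Figure D5:**
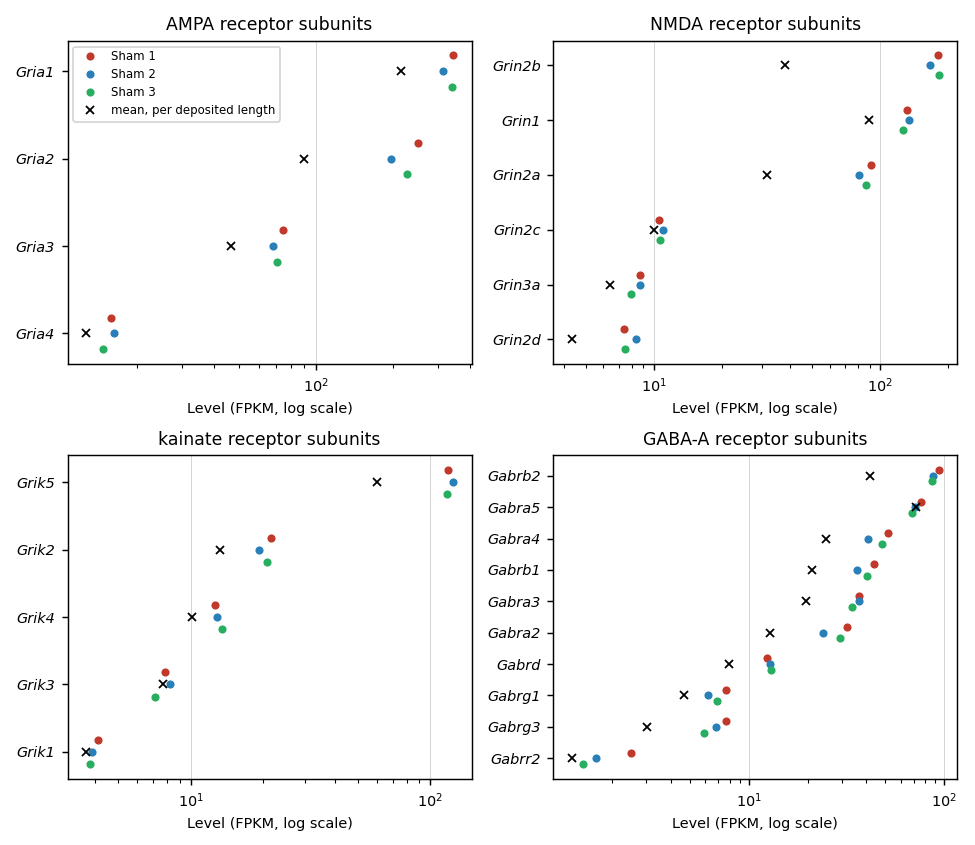
FPKM of expressed AMPA, NMDA and kainate receptor subunits and of the GABA-A receptor subunits named in the text (horizontal log axes) in each sham library as coloured points, with the mean per kilobase of the deposited length as black crosses. The crosses put Grin1 above Grin2b and Gabra5 above Gabrb2, the reverse of the points, and keep the order of the AMPA and kainate subunits.

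GABA-A receptors, pentamers that carry fast inhibition, had 13 of 19 subunits expressed. Gabrb2 was at 94.01, 87.6 and 86.4 FPKM and Gabra5, a subunit enriched in hippocampus that gives tonic currents, at 75.9, 70.9 and 68.7 FPKM. Per deposited length their order turned, with Gabra5 at 71.8 and Gabrb2 at 41.7. The share of Gabra5 was 10.2% ± 0.3803 of the family by FPKM and 18.5% ± 0.605 per deposited length.

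Among the other alpha and beta subunits Gabra4 was at 47.02 ± 5.53 FPKM, Gabrb1 at 39.98 ± 4.14 FPKM, Gabra3 at 35.8 ± 1.81 FPKM and Gabra2 at 28.4 ± 3.99 FPKM. Gabrd, the extrasynaptic delta subunit of granule cells, was at 12.7 ± 0.286 FPKM. The least of those expressed were Gabrg1 at 6.91 ± 0.711 FPKM, Gabrg3 at 6.81 ± 0.863 FPKM and Gabrr2 at 1.86 ± 0.565 FPKM. Gabre, Gabrq, Gabrr1, Gabrr3 and Gabrp stayed at or under 0.146 FPKM, and Gabra6, which marks cerebellar granule cells, was listed at 0. Sham 1 was the highest library in 11 of the 13, against 33.3% of the 14905 genes, with ratios of 1.05 to 1.74.

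The slow GABA-B receptor had Gabbr1, the GABA-binding subunit, at 517, 512 and 515 FPKM, 3.16 times Gabbr2, the subunit that couples to G proteins, at 163, 167 and 158 FPKM. Its auxiliary Kctd proteins were lower, with Kctd12 at 19.1 ± 2.23 FPKM, Kctd16 at 11.5 ± 0.953 FPKM, Kctd8 at 2.69 ± 0.213 FPKM and Kctd12b at 1.22 ± 0.204 FPKM. For glycine, the anchoring subunit Glrb at 107 ± 6.98 FPKM was 29.8 times the next, Glra2 at 3.59 ± 0.264 FPKM, and 17.4 times it per deposited length, and Glra1, Glra3 and Glra4 were not expressed.

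Acetylcholine acts in hippocampus mostly through muscarinic receptors, all 5 of which were expressed. Chrm1 at 68.5, 66.3 and 66.9 FPKM was 60.7% ± 1.01 of the family, above Chrm3 at 30.5 ± 0.959 FPKM, Chrm4 at 7.61 ± 1.14 FPKM, Chrm2 at 2.76 ± 0.171 FPKM and Chrm5 at 2.697 ± 0.319 FPKM. Of 16 nicotinic subunits 5 were expressed: Chrnb2 at 21.2 ± 0.828 FPKM, Chrna7 at 17.1 ± 0.778 FPKM, Chrna4 at 14.8 ± 2.21 FPKM, Chrna5 at 3.36 ± 0.523 FPKM and Chrnb1 at 2.07 ± 0.442 FPKM. Chrna7, which forms channels by itself, and Chrna4 overlapped in FPKM, and per deposited length they were at 17.1 and 5.33. The muscle subunits Chrnd and Chrng and the hair cell subunit Chrna9 were listed at 0.

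Serotonin receptors included a gene that ran with the choroid plexus order. Htr2c, which the choroid plexus also makes, led at 18.7, 25.5 and 31.999 FPKM, with Sham 1 lowest, and its mean without Sham 1 was 28.8 FPKM. Htr1a, an inhibitory receptor of pyramidal cells, was next at 13.2, 11.98 and 12.4 FPKM, and the ion channel Htr3a was at 6.92 ± 0.605 FPKM. Htr2c was higher than Htr1a in every library, and per deposited length the libraries of the pair overlapped. Htr2a, Htr7, Htr5b, Htr6, Htr1b, Htr4 and Htr5a ran close together from 4.23 FPKM to 2.96 FPKM, and each neighbouring pair among them overlapped. Htr1f, Htr1d, Htr2b and Htr3b were not expressed.

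Of the dopamine receptors Drd5 was at 2.57 ± 0.0536 FPKM and Drd1 at 1.37 ± 0.153 FPKM, while Drd2, Drd3 and Drd4 did not reach 1 FPKM in all libraries. Of the adrenergic receptors Adra1d led at 28.1 ± 1.26 FPKM, then Adra2c at 9.02 ± 1.05 FPKM, Adrb1 at 5.901 ± 0.502 FPKM, Adra2a at 5.03 ± 0.469 FPKM, Adra1a at 2.505 ± 0.174 FPKM and Adra1b at 1.69 ± 0.504 FPKM. Adrb3 and Adra2b were not expressed.

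Adora1, the adenosine receptor that damps transmitter release, was at 81.7, 84.6 and 79.9 FPKM, 33.8 times Adora2b at 2.44 ± 0.241 FPKM. Cnr1, the cannabinoid receptor, was at 56.95, 54.2 and 55.6 FPKM and Cnr2 at 0.0805 FPKM. Hrh3, the histamine autoreceptor, was at 39.7 ± 2.87 FPKM and Hrh1 at 2.52 ± 0.433 FPKM, with Hrh2 at 0.789 FPKM and Hrh4 listed at 0. Of the opioid family the nociceptin receptor Oprl1 was at 23.9 ± 0.262 FPKM, Oprd1 at 3.92 ± 0.0625 FPKM, Oprm1 at 1.298 ± 0.231 FPKM and Oprk1 at 0.432 FPKM.

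Of 26 neuropeptide receptors 14 were expressed. Adcyap1r1, the PACAP receptor, at 113 ± 4.96 FPKM led the neurotensin receptor Ntsr2 of astrocytes at 51.2 ± 3.61 FPKM, and per deposited length that order turned, at 40.2 and 51.2. The neuropeptide Y receptors Npy2r, Npy1r and Npy5r were at 26.4 ± 3.66 FPKM, 11.6 ± 1.15 FPKM and 3.09 ± 0.254 FPKM. The somatostatin receptors Sstr4, Sstr1, Sstr3 and Sstr2 were at 21.8 ± 0.963 FPKM, 11.04 ± 1.399 FPKM, 9.48 ± 0.635 FPKM and 7.998 ± 0.176 FPKM, with Sstr5 at 0.0393 FPKM. Vipr1 was at 13.5 ± 0.4697 FPKM, Cckbr at 5.403 ± 1.11 FPKM, Crhr1 at 3.63 ± 0.426 FPKM, Oxtr at 2.64 ± 0.2097 FPKM and Ntsr1 at 1.36 ± 0.341 FPKM. Crhr2 was at 0.8802, 2.297 and 3.01 FPKM and is the member that varied most, by 3.44 times, with Sham 1 lowest. Hcrtr2 and Tacr3 averaged 1.11 FPKM and 0.988 FPKM, and Hcrtr1, Galr2, Tacr1, Vipr2, Avpr1b, Galr1, Avpr1a and Cckar lay between 0.5202 FPKM and 0.0176 FPKM.

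The mineralocorticoid receptor Nr3c2, which binds corticosterone at low levels, was at 71.1, 63.5 and 66.6 FPKM, 2.08 times the glucocorticoid receptor Nr3c1 at 33.2, 30.2 and 33.2 FPKM, and 2.19 times it per deposited length. Pgr was at 8.06 ± 0.344 FPKM, while the oestrogen receptors Esr1 and Esr2 averaged 0.835 FPKM and 0.0555 FPKM. Of the neurotrophin receptors Sort1 at 133 ± 1.98 FPKM and Ntrk3 at 124 ± 9.94 FPKM overlapped, and Ntrk2, the BDNF receptor, was at 89.9 ± 2.198 FPKM. Ntrk3 fell to 15.8 per deposited length, below Ntrk2 at 82.3. Ngfr at 0.655 FPKM was not expressed. Of the ATP-gated P2X channels P2rx4 at 7.07 ± 0.449 FPKM led, then P2rx7 at 4.51 ± 0.307 FPKM, P2rx6 at 3.44 ± 0.374 FPKM, P2rx5 at 2.13 ± 0.345 FPKM and P2rx3 at 1.33 ± 0.143 FPKM, while P2rx1 and P2rx2 were not expressed. Per deposited length P2rx6 was 1.42 times P2rx7, without overlap between libraries.

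Signs of activity, stress and inflammation were read from lists as well. Their counts of expressed members stand against 32.8% of all 41386 genes and 64.2% of the 17967 protein-coding genes. Of 18 immediate early genes, which neurons switch on within minutes of activity, 17 were expressed: Homer1 at 59.1 ± 3.79 FPKM, Junb at 38.8 ± 3.83 FPKM, Arc at 32.9 ± 3.17 FPKM and Egr1 at 25.5 ± 2.6001 FPKM stood above Fos at 7.36 ± 0.757 FPKM and Npas4 at 2.92 ± 0.412 FPKM. Only Egr2, at 1.4004, 0.885 and 0.631 FPKM, differed by more than 2 times. Sham 3 was the lowest library in 10 of the 18, against 29.8% of the 14905 genes. All 11 glucocorticoid-responsive genes were expressed, and Sham 3 was highest in 10 of them, against 30.2% of the 14905 genes. Sgk1, a kinase induced by corticosterone, was at 86.6, 76.4 and 125 FPKM and Tsc22d3, the leucine zipper GILZ, at 40.02, 36.9 and 54.9 FPKM, and neither ratio reached 2. Sgk1 is also made by oligodendrocytes, and its part in the myelin order was not tested.

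Heat shock genes were expressed in 6 of 9 cases, with Hsp90aa1 at 1035 ± 17.98 FPKM and Hspa8 at 135 ± 13.5 FPKM, whereas the inducible Hspa1a, Hspa1b and Hspb1 were listed at 0. Whether RNA of these 3 genes was absent or its reads were not assigned to their rows was not tested. Sham 1 was the lowest library in all 6 expressed heat shock genes, against 35.8% of the 14905 genes, with ratios of 1.03 to 1.23. Of 18 cytokines and chemokines 5 were expressed: Cx3cl1, the neuronal fractalkine, at 439 ± 22.1 FPKM, and Il34, Il33, Cxcl12 and Csf1 from 42.5 FPKM to 15.1 FPKM. For comparison, 32.8% of all 41386 genes and 64.2% of the 17967 protein-coding genes were expressed. Il1b, Tnf and Il6 averaged 0.193 FPKM, 0.0251 FPKM and 0.00527 FPKM, and Cxcl2 was listed at 0. The reactive astrocyte list was expressed in 6 of 14 genes, with Gfap, Vim at 27.4 ± 1.38 FPKM and Serpina3n at 25.2 ± 2.06 FPKM at the top.

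Sham 1 was the highest library in several genes of acute inflammation. Lcn2, lipocalin of reactive astrocytes and neutrophils, had 318, 60 and 12 counts and 8.17, 1.46 and 0.349 FPKM, and Ccl2, a chemokine for monocytes, 73, 9 and 0 counts. Lrg1, an acute phase glycoprotein, had 142, 58 and 57 counts and the urokinase receptor Plaur 59, 13 and 27. All 4 were named after their values were seen, and Lcn2 and Ccl2 are also list members. These are few counts, and most of either list did not share the order: Serpina3n and Gfap differed by 1.17 and 1.16 times. In 71 of the 14905 genes, or 0.476%, Sham 1 was over 2 times both others, and 1 of the 71, Lcn2, had a mean of at least 100 counts.

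Over all genes, with those above kept in, the pools were close. Over 14905 genes the Spearman correlation of FPKM was 0.990 between Sham 1 and Sham 2, 0.988 between Sham 1 and Sham 3 and 0.993 between Sham 2 and Sham 3, as a description across genes. Without the choroid plexus list, over 14886 genes, the 3 values were 0.991, 0.990 and 0.993. The counts that follow are again over the 14905 genes. The highest library was at most 1.2 times the lowest in 64.0% of these genes and at most 1.5 times in 87.8%, with a median ratio of 1.14. A ratio over 2 was seen in 752 genes, or 5.05%, and over 10 in 49. Among the 13064 genes with a mean of at least 100 counts, 158 exceeded 2.

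The biological coefficient of variation fitted by edgeR, the relative SD between libraries beyond counting error, was 0.114 over the 14905 genes. In 5 bins of equal size, from the lowest to the highest FPKM, it was 0.241, 0.155, 0.101, 0.0809 and 0.0735, so low genes were less precise. It was 0.101 without the choroid plexus list and 0.0839 without Sham 1, against 0.137 without Sham 2 and 0.125 without Sham 3. Of the 752 genes, those that left the other libraries within 1.5 times when 1 library was removed numbered 133 with Sham 1 low and 106 with Sham 1 high, 92 and 53 for Sham 2, and 68 and 100 for Sham 3, while 200 had no such library. Ttr was among the 200, since Sham 2 and Sham 3 themselves differed by more than 1.5 times.

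Of 129 receptor genes with at least 1 FPKM in some library 3 exceeded a ratio of 2, against 5.05% of the 14905 genes, and these were Htr1f at 2.26, Crhr2 at 3.44 and Ngfr at 2.69. Cell type markers exceeded it in 25 of 206, against the same 5.05%, of which 19 were the choroid plexus list. A few ribosomal protein genes moved against each other: Rpl23 had 1879, 1054 and 299 counts and Rps12 739, 924 and 1745, both named after their values were seen. Ribosomal protein genes have near-identical copies in the genome among which reads can be split, so these values are uncertain. The reference genes were steadier, with all 13 found expressed and Actb at 886 ± 24.5 FPKM, Hprt at 99.6 ± 2.69 FPKM and Tbp at 12.01 ± 0.396 FPKM, and the largest ratio was 1.29, for Ppia.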

How the data were processed

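Hippocampal RNA of 3 sham libraries, each a pool of hippocampi, was sequenced, and groups came from the labels. Per the labels and the study's methods, the authors aligned reads with TopHat 2 to an Ensembl genome and deposited raw HTSeq counts per gene. The submitters' processing notes name Bowtie 0.12.2 and mm8, whereas the identifiers are those of the BALB/cJ annotation. Strand and multimapping settings are not given in the sources used here. The authors also deposited FPKM, per kilobase of a length that is shorter than the deposited length column for most genes.

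Totals of 37493042 to 44788547 counts set the depth, and 3 counts, the floor used in ratios, equalled 0.0671 to 0.0802 CPM (counts scaled by the TMM-scaled library total). Intervals and floors cover counting error only. Libraries were scaled by TMM (edgeR 4.0.16, R 4.3.3), and the coefficient of variation came from an intercept-only fit. DESeq2 1.42.0 size factors were an alternative. Tables were made in Python 3.11.15. The steps were tested on simulated data for 14905 genes that all had a coefficient of 0.12. It was fitted as 0.1204 after the 200 genes made to differ in Sham 1 were left out. The fit to the real libraries kept such genes in, so the simulation does not show how well that fit did.

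Genes were called expressed at 1 FPKM in all 3 libraries. Named genes were the 25 highest by mean FPKM with a mean of at least 100 counts, the 15 with the widest range, and list members. Also named were the next 10 outside the choroid plexus list that, unlike Ttr, had 2 libraries within 1.5 times of each other. The libraries, lists and rules were chosen with earlier results of these data known. Of 507 listed symbols 492 were found by name and 5 by pathway annotation and neighbours; 10 were not analysed here. Some list members are not reported here. Columns of the injured group and of annotation text were not used for levels. With 1 group, no test was run.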

Additional observations from a re-analysis of the deposited data

How the results depend on the processing

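The counts of expressed genes and of expressed cell type markers stayed within 1.5 times of the values given under every alternative run: 12139 genes at a minimum of 2 FPKM to 17818 at 0.1 FPKM, and 13024 with the deposited length. Leaving out 1 library gave 13761 to 13831 expressed genes and 185 to 200 markers. The share of FPKM in the highest 50 genes, 14.0%, was 10.4% in counts, 12.4% among named genes and 16.3% per deposited length, and 13.9% to 14.0% without 1 library. The share of Gria1 among AMPA subunits, 51.7%, was 49.1% in counts and 59.2% per deposited length, and 51.2% to 52.4% without 1 library. The leading gene was the same in 22 of 23 receptor families by counts and in 19 per deposited length.

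The number of genes over a ratio of 2, 752, was 4088 with no filter on low values and 322 to 471 without 1 library, where fewer libraries are compared. The coefficient of variation, 0.114, was 0.129 with no filter, 0.101 without the choroid plexus list and 0.0839 to 0.137 without 1 library. The number of genes with Sham 1 low, 133, was 219 at a ratio of 1.5 and 51 at a ratio of 3. Values per deposited length, and the count of 155 genes with Sham 1 under 0.5 times both others, were added after the data were seen. No paired analysis was possible because only 1 group is described. Depth limits the genes under about 3 counts, and 3 libraries limit every SD.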
